A study of Mus musculus with 6 samples.

Results

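Ctgf and Cyr61 encode 2 closely related secreted proteins of the CCN family, which bind integrins and matrix molecules at the cell surface and act as signals within the matrix rather than as structural fibres. Here the Jun peaks around both genes were described in chondrocytes of the mouse rib. The members are the rows of the deposited Jun peak list whose midpoint lies on chromosome 10 from 24150001 to 24340000, around Ctgf, or on chromosome 3 from 145200001 to 145420000, around Cyr61. On the mouse build mm9, 75 of the 99162 listed peaks met this rule, 21 at Ctgf and 54 at Cyr61. The rule uses position alone. It places Ctgf at about 24315000 to 24318500 and Cyr61 at about 145310000 to 145313000, both rounded, and these positions were not checked against an mm9 annotation. Distances below therefore carry a rounding of about 500 bp, and any further error in these positions is unknown.

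The assay was ChIP-seq, in which DNA cross-linked to a protein is recovered with an antibody and sequenced. The 1 Jun library and 1 input library came from untreated wild-type ICR pups at P1, that is postnatal day 1, from chondrocytes freed from rib cartilage by enzyme. The study's question was the joint action of AP-1 and Sox9 on DNA while chondrocytes become hypertrophic. The 4 RNA-seq libraries of sorted Col10a1mCherry rib chondrocytes of Swiss Webster mice (2 from P1, 1 from P3, 1 from E18.5) and the input library were not analysed here. Each row of the list gives a position alone, so peaks have no height, score or depth. No replicate of the Jun library is described. No difference below therefore has a test, and intervals cover counting error only. The identity of the cells could not be checked against chondrocyte markers in a peak list.

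Jun is a subunit of AP-1, a factor that binds DNA as a dimer of Jun and Fos family proteins and answers to growth factors, stress and mechanical load. Cyr61 is an immediate early gene, switched on within minutes of serum or stretch, and both genes are classical targets of YAP and TAZ, which reach DNA through TEAD proteins. Ctgf is also a target of TGF-beta and SMAD signalling. In cartilage, Ctgf is a known product of maturing and hypertrophic chondrocytes, and mice without it have malformed ribs and growth plates. Ctgf is transcribed towards higher coordinates and Cyr61 towards lower ones.

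The sequence just before the start of Cyr61 is shown because 1 Jun peak lay at its 5′ end. The 250 bases come from RefSeq on GRCm38.p6 (chr3:145649986-145650235, minus strand). They end at the base before the annotated start. Capitals mark the motif matches.

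Cyr61 promoter: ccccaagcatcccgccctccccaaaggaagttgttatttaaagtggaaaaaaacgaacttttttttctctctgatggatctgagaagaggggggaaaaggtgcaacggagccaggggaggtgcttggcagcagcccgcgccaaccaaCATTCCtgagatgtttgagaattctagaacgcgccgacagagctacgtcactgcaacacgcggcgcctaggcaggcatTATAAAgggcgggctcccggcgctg

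The search covered 7 motifs on both strands. The TEAD motif GGAATG matched 1 time, on the opposite strand, from 103 to 98 bases before the start, and 12.6% of 32851 promoter stretches of the same length held it. A TATA box, TATAAA, lay from 25 to 20 bases before the start, a motif present in 12.4% of the promoters. There was no match to the AP-1 motif TGANTCA (6.75% of promoters), to TGACGTCA (1.55%), to the SRF CArG box (1.47%), to the SMAD motif CAGAC (42.2%) or to the Sox motif AACAATG (3.29%). TGACGTCA does not contain TGANTCA, so no site counts for both, and a match is only a match of letters. The peaks are on mm9 and this sequence on GRCm38.p6, so it was not determined whether the peak covers any of these bases. By the rounded gene position the peak lies inside the gene and not before it. Of the 2 genes, Cyr61 alone was matched in the promoter table. Ctgf was not.

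Both loci were richer in Jun peaks than the autosomes as a whole, Cyr61 more so than Ctgf. The 54 peaks in the 220 kb around Cyr61 gave a density of 245 peaks per Mb (exact Poisson 95% interval 184 to 320). This was 6.02 times the autosomal mean of 40.7 per Mb. The 21 peaks in the 190 kb around Ctgf gave 111 per Mb (68.4 to 169), or 2.71 times that mean. The counting intervals of the 2 densities did not overlap. Peaks near each other are not independent, so these intervals are too narrow. Chromosome 3 as a whole had 35.4 peaks per Mb and chromosome 10 had 43.5, so the order of the loci was opposite to that of their chromosomes.

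Set against autosomal tiles of the same length, the count in the Cyr61 window was rare and that in the Ctgf window was not. The windows differ in shape. That of Ctgf reaches 165 kb upstream of the gene and 21.5 kb downstream, that of Cyr61 107 and 110 kb. Equal flanks are compared below. Of 10893 tiles of 220 kb, 0.56% held at least 54 peaks. The median tile held 5, the 99th percentile was 47 and the fullest held 153. Of 12614 tiles of 190 kb, 9.91% held at least 21 peaks, with a median of 4 and a 90th percentile of 20. Tiles were laid without regard to genes, and 25.4% of the 190 kb tiles and 23.7% of the 220 kb tiles had no peak at all. These shares are a background for the counts and not a test, and how the 2 loci stand among other gene loci was not measured here.

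**Figure D1:**
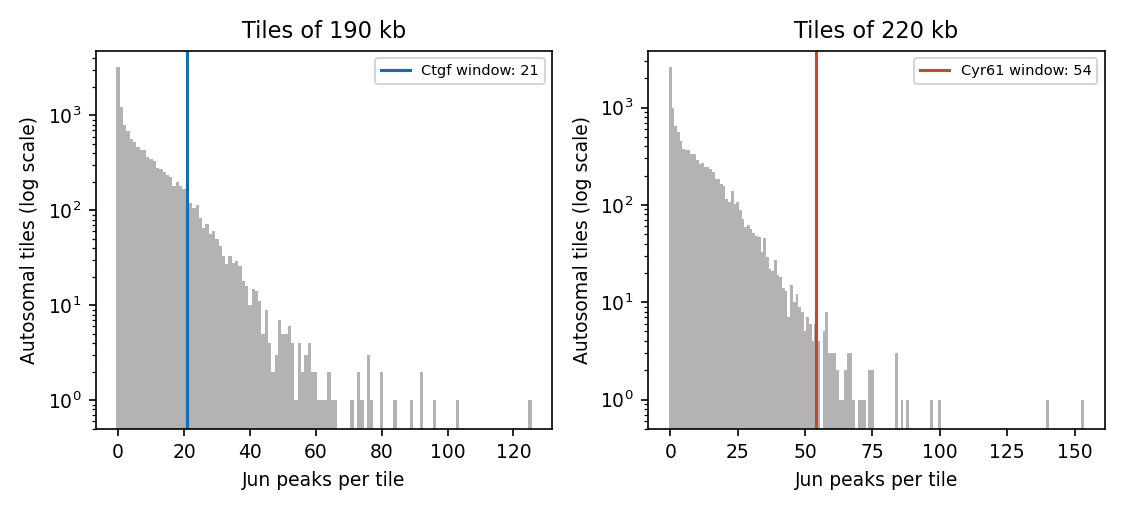
Number of autosomal tiles (vertical, log scale) by the number of Jun peaks in the tile (horizontal), for tiles of 190 kb on the left and 220 kb on the right. Coloured lines mark the Ctgf window with 21 peaks, at the edge of the most peak-rich 9.91% of tiles, and the Cyr61 window with 54 peaks, which 0.56% of tiles reached.

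With peaks as listed, the contrast with the background grew towards the genes. Within 5 kb of Ctgf lay 8 peaks, a count that 0.348% of 177787 autosomal tiles of 13.5 kb reached. With 20 kb on both sides the count was 12, which 1.47% of tiles of 43.5 kb reached. Around Cyr61, 12 peaks lay within 5 kb, reached by 0.0607% of 184627 tiles of 13 kb. With 20 kb on both sides Cyr61 had 20 peaks, reached by 0.237% of tiles of 43 kb. The tile median was 1 peak at 43 and 43.5 kb and 0 at 13 and 13.5 kb. As densities, the stretch with 20 kb on both sides held 6.77 times the autosomal mean at Ctgf and 11.4 times at Cyr61. The 9.91% of tiles as full as the whole Ctgf window thus became 0.348% close to the gene. These near-gene shares were not recomputed with close peaks merged or narrow ones dropped. Under merging within 1000 bp, 4 and 3 of the 8 Ctgf peaks would join into 2 regions. At Cyr61, 5, 3 and 2 of the 12 would join into 3, and 3 of the 12 were under 50 bp wide.

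At Ctgf, the peaks next to the gene stood mostly on the promoter side. The peak closest to the 5′ end was 166 bp wide (chromosome 10, 24315355 to 24315520), with its midpoint 0.44 kb inside the rounded gene interval. Upstream within 5 kb lay 4 further peaks, at 1.86, 2.63, 3.13 and 3.8 kb from the gene. They were 174 bp (24313049 to 24313222), 104 bp (24312322 to 24312425), 333 bp (24311701 to 24312033) and 211 bp (24311095 to 24311305) wide. Neighbours among these 4 were 506.5 to 762 bp apart, and they joined into 1 region of 2128 bp under merging of peaks up to 1000 bp apart. This region was the longest merged one in the Ctgf window.

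Towards the 3′ end of Ctgf the peaks were narrower. Inside the gene lay peaks of 113 bp (24317601 to 24317713) and 97 bp (24318337 to 24318433), and 0.8 kb beyond it 1 of 71 bp (24319262 to 24319332), the narrowest in the window. No further peak was found on that side until 11.36 kb, where a peak of 386 bp (24329664 to 24330049) was the last in the window. Upstream, 3 more peaks stood between 5 and 10 kb from the gene and none between 10 and 20 kb.

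At Cyr61, peaks flanked the gene on both sides. A 79 bp peak (chromosome 3, 145312861 to 145312939) had its midpoint 0.1 kb inside the rounded 5′ end of the gene, less than the rounding of the gene's position. A second peak inside the gene, 201 bp wide (145310485 to 145310685), stood 2.42 kb from the 5′ end. Upstream within 5 kb were 6 peaks, at 0.37, 0.78, 1.83, 2.37, 3.7 and 4.66 kb. Their widths were 41 bp (145313349 to 145313389), 178 bp (145313691 to 145313868), 104 bp (145314775 to 145314878), 12 bp (145315361 to 145315372), 88 bp (145316658 to 145316745) and 79 bp (145317617 to 145317695). The 5′ peak and the first 4 of these joined into 1 region of 2512 bp under merging. In the annotation of GRCm38.p6 the non-coding genes Gm40164 and Gm17501 start between the protein-coding neighbours of Cyr61, Znhit6 and Ddah1. Whether any of these peaks lie in them on mm9 was not determined.

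Downstream of Cyr61 the first 4 peaks stood 0.6, 1.4, 2.42 and 4.29 kb beyond the gene. They measured 18 bp (145309393 to 145309410), 130 bp (145308533 to 145308662), 108 bp (145307531 to 145307638) and 130 bp (145305644 to 145305773). Of the 12 peaks within 5 kb of Cyr61, 3 were narrower than 50 bp, against 0 of the 8 at Ctgf. With these left out, Cyr61 had 9 peaks within 5 kb. Both genes thus had a peak at or near the 5′ end and a run of peaks in the first 5 kb upstream. As listed, both also had 1 peak in the first kb beyond the rounded 3′ end. At Cyr61 this was the 18 bp peak, so the last trait was lost there without peaks under 50 bp.

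**Figure D2:**
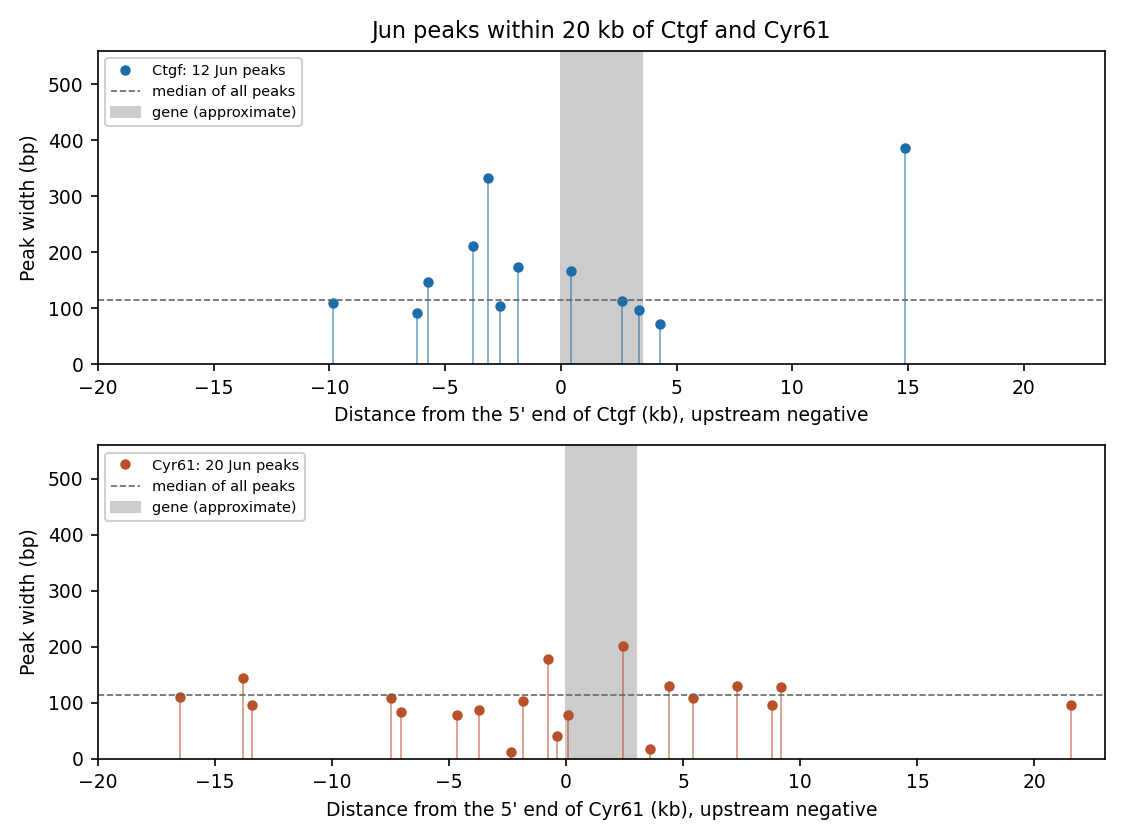
Width of each Jun peak in bp (vertical) against its distance in kb from the rounded 5′ end of Ctgf (top, 12 peaks) and Cyr61 (bottom, 20 peaks), within 20 kb of the gene, which is shaded; the dashed line is the median width of all listed peaks, 114 bp. The Ctgf peaks crowd on the upstream side within 10 kb, while the Cyr61 peaks lie on both sides of the gene.

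Farther out the loci differed in layout. At Ctgf, 9 peaks were spread over the remaining upstream stretch, from 26.65 to 147.88 kb before the gene. The 4 peaks beyond 100 kb upstream amounted to 61.5 per Mb, nearer to the autosomal mean of 40.7 than to the 800.0 per Mb of the first 5 kb upstream. The longest distance between neighbouring centres, 39958 bp, separated the peaks at 136.32 and 96.36 kb. The outermost Ctgf peaks formed a tight trio about 147 kb upstream (24167015 to 24167234, 24167122 to 24167267 and 24167790 to 24167925). The first 2 of the trio overlapped, with centres 70 bp apart. In the whole list 1.51% of peaks overlapped the one before them.

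At Cyr61 peaks were dense over a longer stretch, but unevenly. Between 10 and 20 kb lay 3 peaks upstream and 1 downstream. Between 20 and 50 kb it was 267 peaks per Mb upstream (8 peaks) and 300.0 per Mb downstream (9 peaks). Between 50 and 100 kb it was 220.0 per Mb upstream (11 peaks) and 120.0 per Mb downstream (6 peaks). Beyond 100 kb, in the last 7 kb of the window upstream and the last 10 kb downstream, there were 0 peaks. Over the whole window 30 peaks lay upstream in 107 kb and 22 downstream in 110 kb, with exact Poisson 95% intervals of 189 to 400.3 and 125 to 303 per Mb, which overlapped. The longest distance between neighbouring centres was 17932 bp, upstream between 59.04 and 76.97 kb from the gene. The first peak by position lay at 145222718 to 145222810, 87.24 kb downstream, and the last at 145394319 to 145394389, 81.35 kb upstream.

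**Figure D3:**
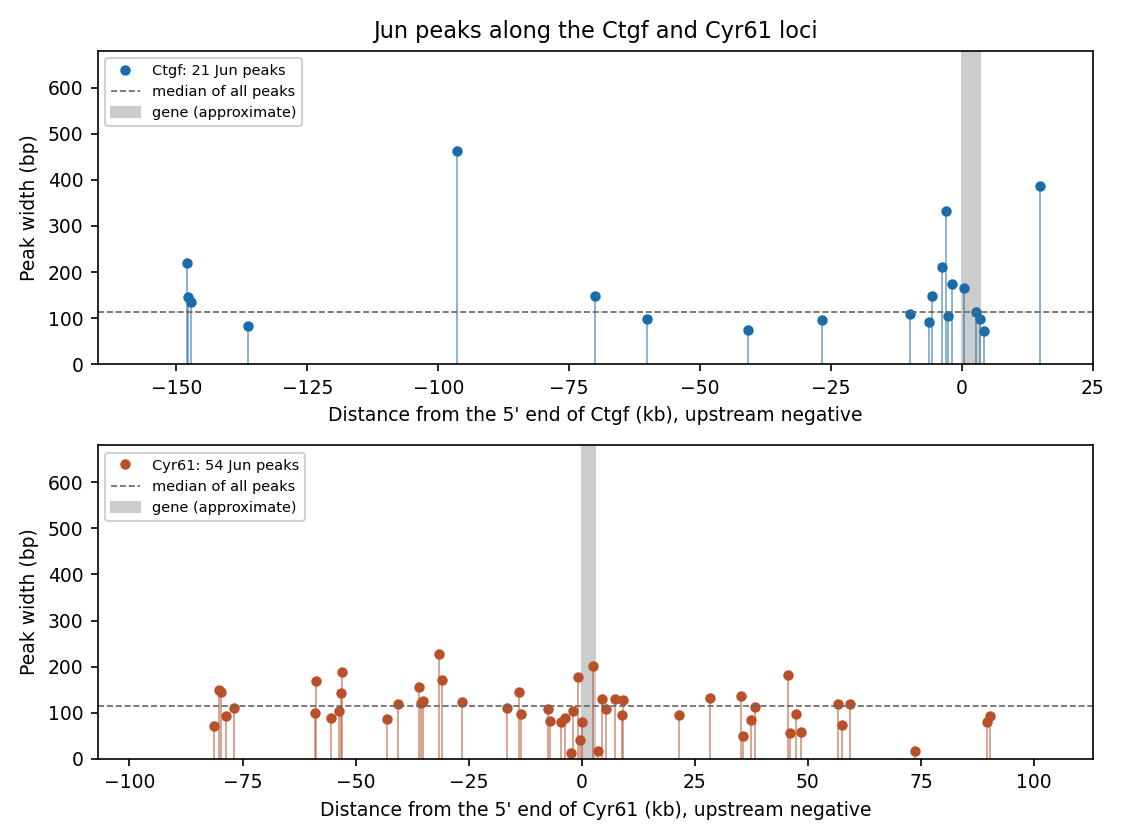
Width of each Jun peak in bp (vertical) against its distance in kb from the rounded 5′ end of Ctgf (top, 21 peaks) and Cyr61 (bottom, 54 peaks) over the whole windows; the gene is shaded and the dashed line is the median width of all peaks, 114 bp. Ctgf peaks gather at the gene with a sparse upstream stretch, while Cyr61 peaks recur in small sets over most of the window.

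When peaks with centres within 10 kb of each other were chained, Ctgf had 8 groups and Cyr61 had 5. The fullest group at Ctgf, 11 peaks over 14.2 kb (24305086 to 24319332), contained the gene and 52.4% of the window's peaks. Of 37573 autosomal groups, 2.6% were as full, and these held 18.1% of the autosomal peaks. The fullest group at Cyr61 also contained its gene. It held 33 peaks over 68.3 kb (145303747 to 145372089), or 61.1% of the window's peaks, and 0.186% of autosomal groups, with 3.58% of the autosomal peaks, were as full. A second group of 13 peaks over 37.8 kb (145253716 to 145291511) lay downstream of Cyr61, 18.54 to 56.23 kb from it. In the Ctgf window 5 of the 8 groups were lone peaks, and at Cyr61 1 of 5 was. Chaining depended on the distance: with 5 kb instead of 10 kb, Cyr61 had 12 groups and Ctgf 9.

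Neighbouring peak centres were 1240 bp apart at Cyr61 (median of 53 distances) and 2261 bp at Ctgf (median of 20), against 5652 bp over the whole list. At Cyr61 20 of the 53 distances were 1000 bp or less, and at Ctgf 8 of 20 were. The smaller median at Cyr61 therefore came with a like share of very close pairs. Merging peaks within 1000 bp left 29 regions at Cyr61, 17 of them joined from several peaks, and 13 at Ctgf, 4 of them joined. The longest joined region at Cyr61 measured 2857 bp and held 4 peaks (145391533 to 145394389), about 80 kb upstream.

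As listed, peaks were wider at Ctgf than at Cyr61, but this order depended on the processing. The median width was 136 bp at Ctgf (exact binomial 95% interval of the median 97 to 174) and 108 bp at Cyr61 (96 to 122). The whole list had a median of 114 bp, which lies within both intervals. The order turned with peaks within 1000 bp merged (166 bp at Ctgf and 525 bp at Cyr61) and in the last 50% of the list (122 and 126 bp). Merged widths include the stretches between joined peaks, and the last 50% held only 4 Ctgf peaks, against 20 at Cyr61. Of the Ctgf peaks 5 of 21 (23.8%) measured 200 bp or more, and of the Cyr61 peaks 2 of 54 (3.7%) did, against 14.0% of the list. The widest at Ctgf were 462 bp (24218408 to 24218869, 96.36 kb upstream), 386 bp and 333 bp. The widest at Cyr61 were 228 bp (145344348 to 145344575, 31.46 kb upstream), 201 bp and 188 bp (145365802 to 145365989). Narrow peaks under 50 bp numbered 4 at Cyr61, of 12 to 41 bp, and 0 at Ctgf, against 6.3% of the list.

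What orders the rows of the deposited list, which does not run along the chromosomes, is stated by neither labels nor headers. As counts, without an interval or a test, a larger share of the peaks of both loci than of all rows stood early. In the first 10% of rows were 4 of 21 Ctgf peaks (19.0%) and 9 of 54 Cyr61 peaks (16.7%). These counts are small, and 2 of the 4 Ctgf peaks overlap each other. Of the peaks within 5 kb of the gene, 1 of 8 at Ctgf and 2 of 12 at Cyr61 were in that part. In the first 50% were 17 of 21 (81.0%) and 34 of 54 (63.0%). The median place was 33.7% of the way down the list at Ctgf and 39.2% at Cyr61.

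The earliest Ctgf peak was row 250 of 99162. It was the 104 bp peak 2.63 kb before the gene, in the middle of the upstream run. The next were rows 475 and 1473, the overlapping pair about 147.8 kb upstream. The 5′ peak of Ctgf was row 12844. At Cyr61 the earliest was row 923, an 89 bp peak 55.46 kb upstream (145368411 to 145368499), followed by row 3652 (145265574 to 145265670, 44.38 kb downstream) and row 5750 (145274531 to 145274643, 35.41 kb downstream). The 5′ peak of Cyr61 was row 7620. Of the 3 earliest peaks of each locus, 1 at Ctgf and 0 at Cyr61 were within 5 kb of the gene. Of all peaks in the windows, 38.1% at Ctgf and 22.2% at Cyr61 were, so counts of 3 show no contrast. The 3 widest Ctgf peaks were rows 33439, 95724 and 44057, while row 1473 measured 220 bp, so early and late rows both held peaks of 200 bp or more.

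**Figure D4:**
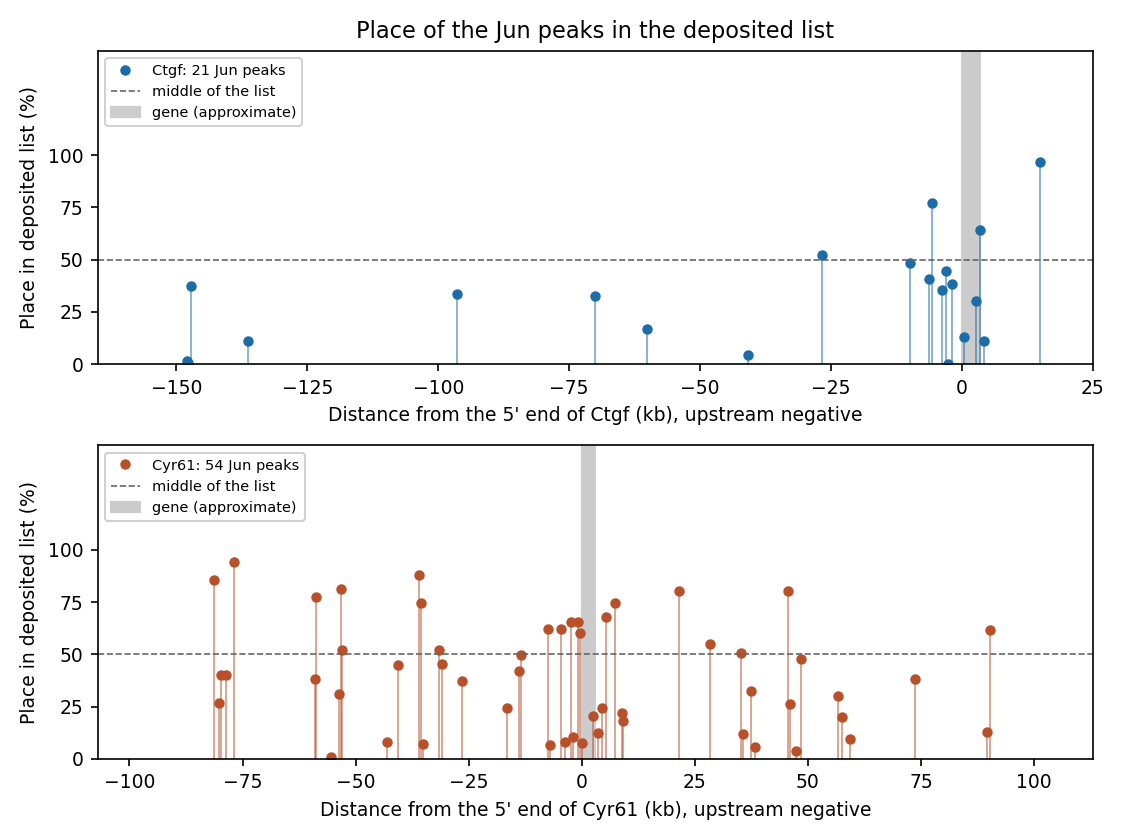
Place of each Jun peak in the deposited list, as a percentage of its 99162 rows (vertical, 0 is the first row), against distance in kb from the rounded 5′ end of Ctgf (top) and Cyr61 (bottom). Most Ctgf peaks lie under the dashed middle of the list (17 of 21), and the earliest rows include both peaks near the genes and distant ones.

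The windows' borders did not cut through a group. The nearest listed peaks outside lay 32.86 kb before (24117091 to 24117194) and 10.69 kb after the Ctgf window (24350644 to 24350727). For Cyr61 they lay 60.02 kb before (145139902 to 145140055) and 1.53 kb after it (145421468 to 145421598). Each was over 10 kb from the nearest member. By gene order on GRCm38.p6, Ctgf stands between the protein-coding genes Moxd1 and Enpp1, and the non-coding gene Gm15270 overlaps it. Cyr61 stands between Znhit6 and Ddah1. Which of the peaks lie in these neighbours on mm9, and to which gene any peak belongs, was not determined.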

How the data were processed

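The authors deposited 1 list of Jun peaks with 3 columns, chromosome, start and end. It is on mm9 per the submitters' processing notes. The name of the list carries the mark FDR1, which no label or header explains. The aligner, the peak caller, the meaning of that mark and the use of the input library were not given in the sources used here. Besides, the list names no sample and was taken as that of the Jun library, the 1 Jun ChIP sample in the series. Per the labels' protocols, sheared fragments measured 100 to 600 bp and libraries were amplified with 18 PCR cycles.

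Starts were counted from 1. A peak's position is its midpoint. Counts, widths, distances and groups were computed with Python 3.11.15, pandas 2.3.3, numpy 2.4.6 and scipy 1.17.1, and drawn with matplotlib 3.10.9. The code was tested on simulated data with a planted window. Tiles did not overlap and lay between the first and last peak of each of the autosomes. Intervals at 95% are exact Poisson intervals, and for median widths exact binomial ones. Read depth is unknown. Peaks named by position were all within 5 kb of a gene, the 3 widest, the 3 listed first, the first and last, the fullest group and the longest distance between neighbours. Other peaks were named after their values were seen. The members, windows and measures were chosen with earlier results of these data known. Peak counts at other CCN genes and YAP targets, and motifs inside peaks, need mm9 genes or sequence and were not analysed here. The alternatives merged peaks, dropped narrow ones, took parts of the list and changed windows and tiles.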

Additional observations from a re-analysis of the deposited data

How the results depend on the processing

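The density of both loci was above the autosomal mean under the alternatives run. Merging peaks within 1000 bp left 13 regions at Ctgf and 29 at Cyr61. The Cyr61 density then was 4.34 times the mean and its median width 525 bp, against 166 bp at Ctgf, and 15.3% of tiles were as full as Ctgf and 1.26% as full as Cyr61. With peaks of at least 50 bp, 8.56% of tiles were as full as Ctgf.

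In the first 50% of the list Cyr61 had 34 peaks. The Ctgf density was 4.38 times the mean, and 3.12% of tiles were as full as Ctgf and 0.193% as full as Cyr61. In the last 50%, Ctgf had 4 peaks and Cyr61 20. The densities were 1.04 and 4.48 times the mean, 38.5% and 2.24% of tiles were as full, and the median width was 126 bp at Cyr61 and 122 bp at Ctgf. With merging and in the last 50%, Cyr61 thus had the larger median, opposite to the peaks as listed. In the first 50% the order was as listed, with medians of 136 bp at Ctgf and 98.5 bp at Cyr61. The Ctgf excess over the mean was thus nearly absent from the last 50% of the list, but this rests on 4 peaks and has no interval. It restates the split given above, with 17 of 21 Ctgf peaks in the first 50%. The cause was not tested, beyond each part having fewer peaks by construction.

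With 20 kb on both sides of the gene the densities were 6.77 and 11.4 times the mean. Among tiles with at least 1 peak, 13.3% were as full as Ctgf and 0.734% as full as Cyr61. Chaining within 5 or 2 kb gave 12 or 20 groups at Cyr61. Alternative values numbered 44. Densities, median widths and tile shares were held against the interval of the result as listed. Numbers of peaks and of groups were held against a ratio of 1.5 to the count as listed. By these limits 20 of the 44 stayed. Only some of these 20 are printed here. The other 24, all printed here, moved beyond these limits. No paired analysis was possible because the results come from no test and from 1 library. Without depth, a stretch with no listed peak cannot be taken as unbound.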

Other observations

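Some Cyr61 peaks stand next to each other in the deposited list although its rows are not in genomic order. For 4 of the 54 Cyr61 peaks (7.41%) the next row of the list was another Cyr61 peak. These pairs were rows 61738 and 61739, 64939 and 64940, 73919 and 73920, and 79699 and 79700, with centres 2.83, 1.59, 42.9 and 24.1 kb apart. None of the 21 Ctgf peaks had such a neighbour. Over the whole list the next row lay within 100 kb on the same chromosome for 1.29% of rows, 0.484% in the first 50% of the list and 2.11% in the last 50%. These shares are not a like measure, since the Cyr61 pairs could lie anywhere in its 220 kb window. That window is also denser in peaks than the autosomal mean. All 4 pairs were in the last 50%. This measure was chosen after seeing the data, and what orders the rows was not tested.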
